A study of Homo sapiens with 12 samples.

Results

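Translation initiation factors carry a ribosome onto an mRNA and place it at the start codon, and elongation factors then move it along the coding sequence. The factor genes were chosen by symbol, as those starting with EIF1 to EIF6 or with EEF1 or EEF2, without the EIF2AK kinases and without pseudogenes. A total of 56 genes met this rule, read by 141 probe sets, among 19775 genes that are named alone by a probe set of the array. For each gene the probe set with the highest mean over the 12 arrays was used, so overall brightness chose the probe set and is given only as a description. The rule itself uses no difference between the siRNA groups.

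The RNA came from MDA-MB-231 cells, an established line grown from a triple-negative breast tumour, seeded sparsely in serum-containing medium and transfected with small interfering RNAs (siRNAs) at 33 nM on day 2. Medium was changed on day 3 and cells were harvested on day 4. The 3 groups were a control siRNA, a first siRNA mix against YAP and TAZ (mix 1) and a second such mix (mix 2), each with 4 parallel biological replicates A to D. YAP (gene YAP1) and TAZ (gene WWTR1) are transcriptional coactivators at the end of the Hippo pathway; each mix lowered both together, in 1 cell line, so neither the parts of YAP and TAZ nor effects of the siRNAs on other genes can be told apart within a mix. The same 4 control arrays serve both mixes.

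All values are log2 expression values of 1 probe set. A difference of 1 on this scale is a change of 2-fold, and levels are compared between groups within a probe set, never between genes. Differences were called at an adjusted p below 0.05 from limma, adjusted over the 13225 genes that passed a filter on low values (a mean above 5.46 log2). Of the 56 factor genes 53 passed: EIF4E3 (mean 6.14) lay closest above the filter value, and EIF3C (5.67, 5.07 and 4.87 in control, mix 1 and mix 2) and EIF4A2 (3.48, 3.47 and 3.58) lay below it together with 1 Y-linked gene. EIF3C and EIF4A2 were read by 1 probe set each, so their low values do not show that these genes are silent. Of the 56 members 2, EIF1B-AS1 and EIF3J-DT, are non-coding transcripts beside factor genes. Probe sets that name several genes were not used, which leaves EIF4A1, EEF1G, EEF1B2 and EIF4EBP3 not analysed here. EIF4G3 is not among the 56 genes either.

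Across genes, replicate arrays correlated at 0.993 to 0.998. Mix 2 replicate D had a lower upper quartile than the other 11 arrays (7.70 log2 against 7.78 to 7.87), and results that change without it are given both ways. YAP1 was lowered to 12.4% and 11.9% of control, and WWTR1 to 19.8% and 18.3%. All 6 markers of this mesenchymal line were above the filter value, with summed levels of 15.52 to 15.55, 15.49 to 15.57 and 15.56 log2 in control, mix 1 and mix 2. Single markers moved within these sums: with mix 1, 3 were called higher and 3 lower, from -1.11 to 1.72 log2. With mix 2, 1 was called higher and 3 lower, from -0.41 to 1.39. Over all tested genes 34.8% were called higher and 32.3% lower with mix 1, and 36.7% and 31.9% with mix 2. Of the defining markers of other cells, CDH1 (epithelial cells), PTPRC (leukocytes), CDH5 (endothelial cells) and COL1A2 (fibroblasts) lay below the filter value in every group mean. Others lay above it: EPCAM was at 9.57, 9.20 and 10.50 log2 in control, mix 1 and mix 2, KRT18 at 12.88, 12.98 and 12.90, PECAM1 at 6.54, 8.62 and 7.88, and COL1A1 at 7.04, 9.34 and 8.52. PECAM1 rose by 2.08 and 1.33, COL1A1 by 2.30 and 1.48, and EPCAM fell by 0.38 with mix 1 and rose by 0.93 with mix 2 (limma adjusted p from 2.67e-11 to 0.00611). KRT18 was not called with either mix (adjusted p = 0.277 and 0.809). The summed level of 6 measured leukocyte markers (4 above the filter value) was nevertheless 7.76 to 7.91 log2 in control against 9.46 to 9.82 with mix 1 and 9.56 to 9.82 with mix 2, through LYZ and CD14. For 5 endothelial markers (2 above the filter value) it was 7.63 to 7.92, 8.91 to 9.10 and 8.42 to 8.62, for 6 fibroblast markers (2 above) 8.02 to 8.36, 9.57 to 9.97 and 9.26 to 9.43, and for 10 epithelial markers (7 above) 13.31 to 13.43, 13.42 to 13.61 and 13.40 to 13.61. The part of these genes in the factor values was not tested. In RNA from a whole culture, fewer cells of a type and less RNA per cell cannot be told apart.

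Initiation begins when eIF2, loaded with GTP and the initiator tRNA, joins the small ribosomal subunit together with eIF1, eIF1A, eIF5 and the large eIF3 complex. The cap-binding complex eIF4F brings in the mRNA, and its cap-binding subunit eIF4E is held off by the 4E-binding proteins (4E-BPs) until the kinase mTORC1 phosphorylates them. After start codon recognition eIF5B joins the large subunit, eIF2 leaves with GDP and is recharged by eIF2B, and eEF1A, eEF2 and eIF5A carry out elongation. Cancer cells with high MYC or mTORC1 activity are known for a strong demand on these factors.

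With mix 1, 41 of the 53 measured factor genes fell and 3 rose, against 32.3% of all tested genes called lower, 34.8% higher and 67.1% called in all. The median difference of the 53 genes was -0.40 log2, and that of all tested genes was 0.01. With mix 2, 38 fell and 5 rose, against 31.9% of all genes called lower, 36.7% higher and 68.6% in all, with a median of -0.37 (all genes 0.03). Falls of at least 2-fold were seen in 7 factor genes with mix 1 (8.29% of all genes) and in 5 with mix 2 (9.35%), and no factor gene rose 2-fold (8.10% and 9.09% of all genes did). The share of factor genes called lower was thus above that of all genes, and the share with falls of 2-fold was near it with mix 2 and somewhat above it with mix 1.

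The groups did not overlap, so that every knockdown array lay below every control array, for 39 genes with mix 1 and 37 with mix 2, where 31.0% of all genes did so in each comparison. Every knockdown array lay above every control array for 3 and 5 factor genes (32.3% and 33.8% of all genes). Without mix 2 replicate D, 41 genes were lower and 4 higher with mix 1, and 37 lower and 5 higher with mix 2.

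**Figure D1:**
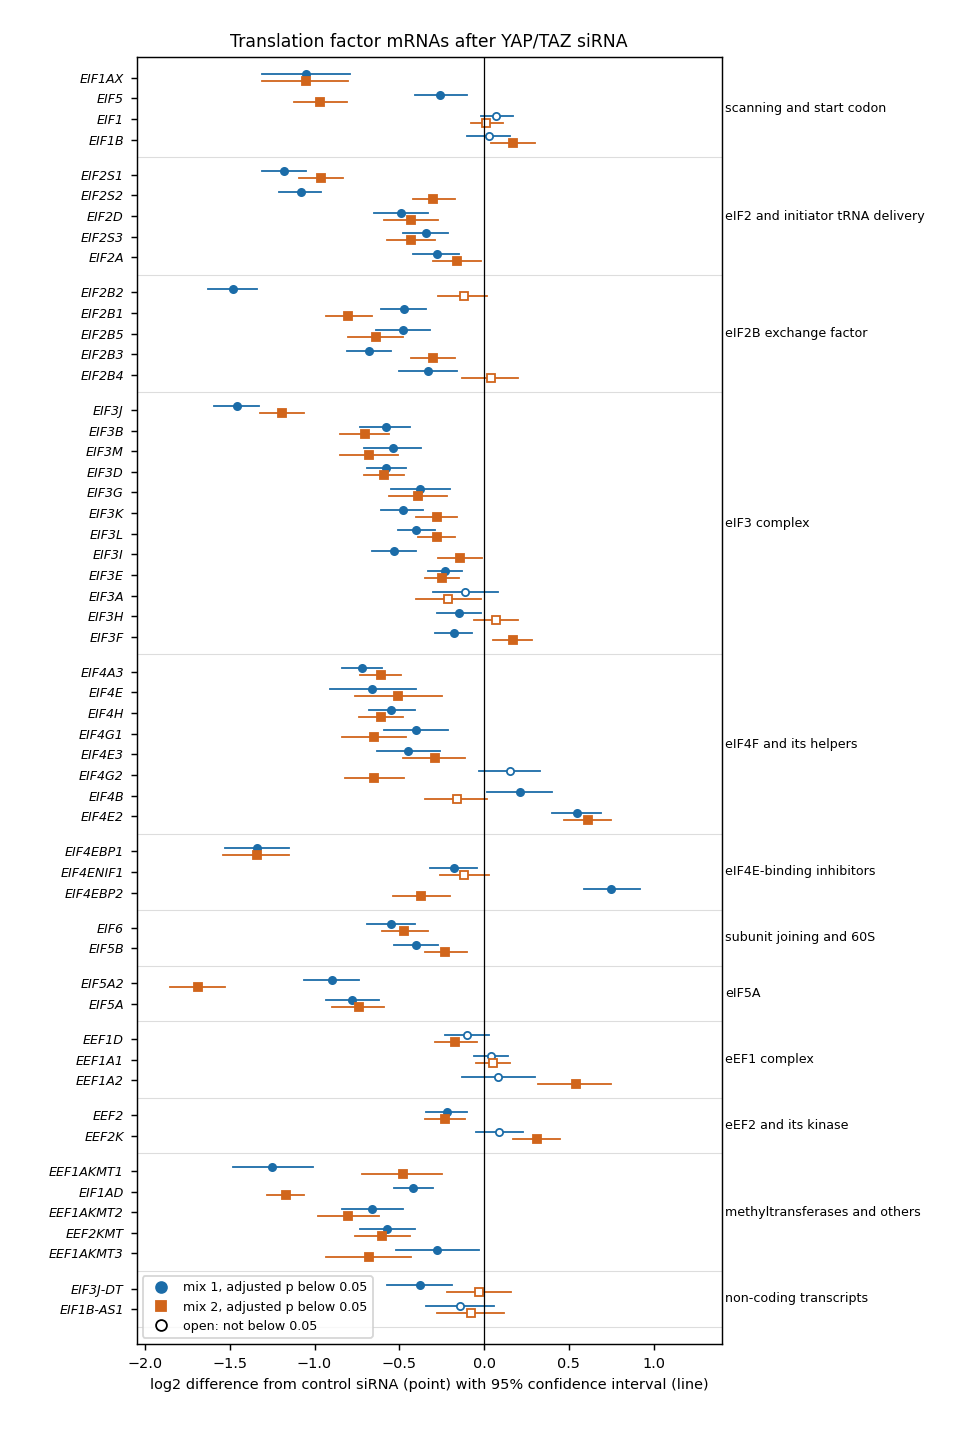
Difference of each of 53 factor genes from control siRNA on the log2 scale (x axis), for mix 1 (blue circles) and mix 2 (orange squares), with 95% confidence intervals from limma and n = 4 arrays per group; filled symbols have an adjusted p below 0.05. Most symbols lie left of 0, from EIF5A2 at -1.69 (mix 2) to EIF4EBP2 at 0.75 (mix 1).

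The 42 measured protein-coding genes with EIF symbols, which include EIF5A, EIF5A2 and EIF1AD besides initiation factors and inhibitors, had a median of -0.46 with mix 1 (35 lower, 3 higher) and -0.41 with mix 2 (32 lower, 3 higher). The 9 measured genes with EEF symbols, among them the eEF2 kinase and 4 methyltransferases that modify the elongation factors, had medians of -0.22 (5 lower, 0 higher) and -0.23 (6 lower, 2 higher). For comparison, 59 cytosolic ribosomal protein genes had medians of -0.23 (45 lower, 2 higher) and -0.15 (34 lower, 3 higher). The 19 measured genes of cytosolic tRNA synthetases had medians of -0.33 (17 lower, 1 higher) and -0.24 (12 lower, 4 higher). Over all tested genes 32.3% were lower and 34.8% higher with mix 1, and 31.9% and 36.7% with mix 2. The difference between these gene sets was not tested.

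**Figure D2:**
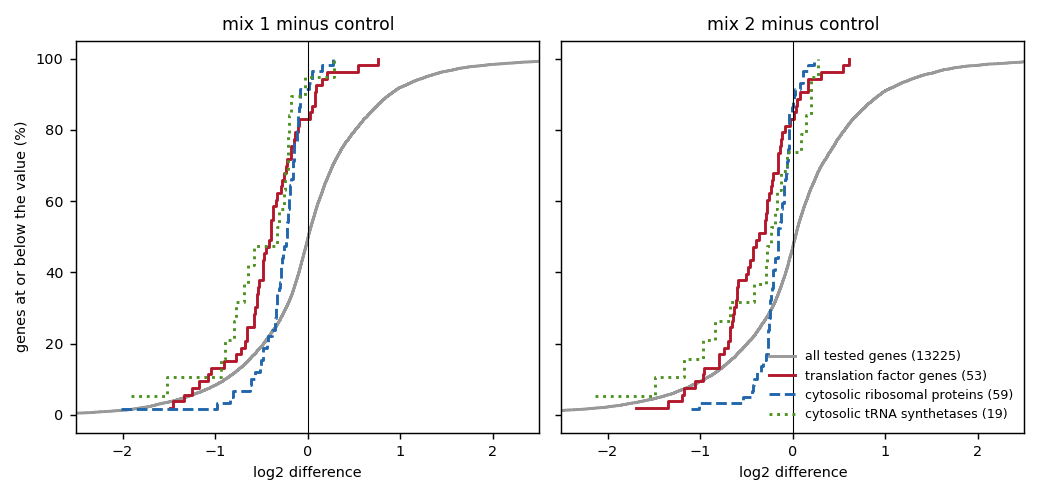
Share of genes (y axis, percent) at or below each log2 difference from control (x axis) with mix 1 (left) and mix 2 (right), for 53 factor genes, 59 cytosolic ribosomal protein genes, 19 cytosolic tRNA synthetase genes and all 13225 tested genes. The line of the factor genes runs left of that of all genes in the middle of the range (medians -0.40 and -0.37 against 0.01 and 0.03) and meets it at the lowest values.

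The starts of the factor genes are shown because many genes of the translation machinery begin with a terminal oligopyrimidine (TOP) tract, a C at the first base followed by pyrimidines, through which mTORC1 and LARP1 control their translation. The reference table holds start windows for 43 factor genes and lacks 12 others, which the search leaves out together with the Y-linked gene. A start with C followed by at least 4 C or T bases was found in 11 of 43 (25.6%), against 747 of 10667 tested genes with a window, 4.07% of all start windows and 67.3% of cytosolic ribosomal protein genes. Each line gives 10 bases before and 15 from the annotated start on, 5′ to 3′ on the gene's strand (RefSeq, GRCh38.p14), with the tract in capitals.
EEF1A1, chr6:73521018-73521042, minus strand: cgtgaacgttCTTTTTCgcaacggg
EEF2, chr19:3985449-3985473, minus strand: cgtcagcgttCTCTTCCgccgtcgt
EIF3D, chr22:36529152-36529176, minus strand: cgcatgtttcCTCTTTTCCTggttt
EIF3F, chr11:7987327-7987351, plus strand: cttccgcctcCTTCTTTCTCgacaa
EIF2S3, chrX:24054946-24054970, plus strand: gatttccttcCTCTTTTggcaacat
EIF4B, chr12:53006446-53006470, plus strand: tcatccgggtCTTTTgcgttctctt
EIF3K, chr19:38619178-38619202, plus strand: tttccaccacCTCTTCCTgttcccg
EIF3M, chr11:32583821-32583845, plus strand: gcccagttccCTTTTCCggtcggcg
The next 4 genes are among those with the largest falls and have no such tract at their annotated start.
EIF3J, chr15:44537137-44537161, plus strand: ccgccgtgctaactcctcgctagct
EIF2S1, chr14:67360318-67360342, plus strand: gaggttccgcatgcgcggtggagtg
EIF1AX, chrX:20141824-20141848, minus strand: gagtcgcggcgccatttgctgccgc
EIF5A2, chr3:170908623-170908647, minus strand: cccgtctcttggaactgccgcggcc

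The 10 measured factor genes with a TOP-like start had medians of -0.31 with mix 1 (8 lower, 1 higher) and -0.26 with mix 2 (7 lower, 1 higher). The 31 without one had medians of -0.47 (24 lower, 2 higher) and -0.51 (22 lower, 3 higher). Of all tested genes 32.3% were lower and 34.8% higher with mix 1, and 31.9% and 36.7% with mix 2. Among the TOP-like genes the values ran from -0.58 to 0.21 with mix 1 and from -0.68 to 0.17 with mix 2, in the brightest probe sets. Other probe sets of TOP-like genes fell further, to -1.02 and -1.34 for EIF3M and -1.08 with mix 2 for EIF3F. The difference between both classes was not tested, and a start in the reference need not be the start used in these cells.

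The promoters were also searched, on both strands, for CACGTG, the palindromic E-box that MYC with its partner MAX is known to bind. It was found in the 300 bases around a start in 12 of 43 factor genes (27.9%), against 12.4% of tested genes with a window. A gene was counted when any of its starts matched. Of all single start windows 7.26% held the motif. The windows below are shown for the cap-binding gene EIF4E, the helicase gene EIF4A3 and EIF5A2, the factor gene with the largest fall, with the E-box in capitals (RefSeq, GRCh38.p14).
EIF4E, chr4:98929189-98929218, minus strand: cggacatatccgtCACGTGgccagaagctg
EIF4A3, chr17:80147229-80147258, minus strand: gttccctttCACGTGacgaagagtgccccg
EIF5A2, chr3:170908788-170908832, minus strand: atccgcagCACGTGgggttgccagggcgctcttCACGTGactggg
The E-box begins 72 bases before the start in EIF4E, 121 in EIF4A3, and 187 and 162 in EIF5A2. These genes fell with both mixes, whereas EIF1B, EIF1B-AS1, EIF3F, EIF4B and EEF2K, which also hold the motif, did not in their brightest probe sets. The 12 measured genes with the motif had medians of -0.44 (8 lower, 1 higher) and -0.29 (7 lower, 3 higher). The 29 without it had -0.45 (24 lower, 2 higher) and -0.43 (22 lower, 1 higher). Of all tested genes 32.3% were lower and 34.8% higher with mix 1, and 31.9% and 36.7% with mix 2. MYC mRNA fell by 1.27 and 0.94 log2 (adjusted p = 1.75e-09 and 4.82e-08), and its part in the factor values was not tested. A match of letters is no evidence of binding.

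Among the genes of scanning and start codon choice, EIF1AX encodes eIF1A, which keeps the scanning subunit open and on course. Its levels in control A to D were 11.75, 11.62, 11.50 and 11.60 log2, against 10.68, 10.80, 10.25 and 10.54 with mix 1 and 10.60, 10.44, 10.37 and 10.85 with mix 2. All 8 knockdown arrays lay below all control arrays. The fall was 1.05 log2 with each mix (SE 0.12; adjusted p = 1.69e-06 and 1.54e-06), which left 48.3% and 48.2%, and its 3 other probe sets also fell in both comparisons.

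EIF5 encodes the activator of GTP hydrolysis by eIF2. Its level was 12.63 ± 0.03 log2 in control (SD, n = 4), 12.38 ± 0.14 with mix 1 and 11.67 ± 0.09 with mix 2. It fell by 0.26 with mix 1 (SE 0.07, adjusted p = 0.00543) and by 0.97 with mix 2 (SE 0.07, adjusted p = 1.35e-08). Its 4 other probe sets fell with mix 2 by 0.93 to 1.37. With mix 1 they gave -0.89 to 0.24, so the size and the sign of the mix 1 change differed between probe sets.

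EIF1 encodes the guardian of start codon fidelity and EIF1B its close relative. The brightest EIF1 probe set gave no call, with 0.07 (adjusted p = 0.165) and 0.01 (adjusted p = 0.794). Its 6 other probe sets read lower with mix 2, by -0.40 to -1.38, and the brighter of the 2 not shared with other transcripts gave 8.35, 7.38 and 6.96 log2 in control, mix 1 and mix 2. The direction for EIF1 therefore depended on the probe set. EIF1B rose with mix 2 from 11.65, 11.60, 11.51 and 11.51 log2 in control to 11.68, 11.81, 11.70 and 11.75, which is 0.17 (SE 0.06, adjusted p = 0.0223). With mix 1 it was 0.03 above control, with overlapping arrays (adjusted p = 0.735). The EIF1B call with mix 2 was lost when arrays were centred on their medians (0.15, adjusted p = 0.0839), with the mean of its probe sets (0.04, adjusted p = 0.565), and without control C, control D or mix 2 B.

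All 5 genes of eIF2 and of initiator tRNA delivery fell with both mixes (medians -0.49 and -0.43). Of all tested genes 32.3% were called lower with mix 1 and 31.9% with mix 2. EIF2S1 encodes the alpha subunit of eIF2, which stress kinases phosphorylate to slow initiation. Its levels were 12.49, 12.48, 12.47 and 12.57 log2 in control, 11.31, 11.30, 11.30 and 11.39 with mix 1, and 11.63, 11.59, 11.58 and 11.38 with mix 2. The brightest probe set thus lay about 1 log2 unit lower in all 8 knockdown arrays. The falls were 1.18 (SE 0.06, adjusted p = 3.28e-10) and 0.96 (SE 0.06, adjusted p = 2.79e-09). The EIF2S1 probe set that is not shared gave a different picture, with 10.63 in control, 10.72 with mix 1 (difference 0.09, adjusted p = 0.355) and 10.21 with mix 2 (-0.43, adjusted p = 8.46e-05).

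EIF2S2 encodes the beta subunit. It was at 13.17 ± 0.04 log2 in control (SD, n = 4), 12.09 ± 0.07 with mix 1 and 12.87 ± 0.08 with mix 2. The 3 groups were fully separate, with mix 2 between the others. The fall was 1.08 with mix 1 (adjusted p = 4.74e-10) and 0.30 with mix 2 (adjusted p = 0.000341; SE 0.06 each). Its other probe set fell with both mixes but by less with mix 1 (-0.26) than with mix 2 (-0.49).

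EIF2S3, the gamma subunit that binds GTP and the tRNA, fell by 0.34 and 0.43 log2. EIF2D, which can deliver tRNA outside the usual route, fell by 0.49 and 0.43. EIF2A, a separate protein with initiator tRNA binding activity, was at 11.49, 11.49, 11.48 and 11.64 log2 in control, 11.27, 11.13, 11.17 and 11.39 with mix 1, and 11.37, 11.40, 11.36 and 11.33 with mix 2. No knockdown array reached the lowest control array. The EIF2A falls were small, 0.28 (adjusted p = 0.00116) and 0.16 (adjusted p = 0.0391), and without mix 2 replicate D the latter was 0.15 with an adjusted p of 0.0691. The same call was lost with no filter (0.0698) and when control A, control B, control D, mix 2 A or mix 2 C was left out.

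eIF2B, the exchange factor that recharges eIF2 with GTP, has 5 subunits, and all 5 of their genes fell with mix 1 (median -0.48). With mix 2, EIF2B1 (-0.80), EIF2B5 (-0.64) and EIF2B3 (-0.30) fell. Of all tested genes 32.3% were called lower with mix 1 and 31.9% with mix 2. EIF2B2, the beta subunit, showed a clear split between the mixes. Its levels were 10.37, 10.50, 10.34 and 10.37 log2 in control, 8.89, 8.98, 8.96 and 8.82 with mix 1, and 10.34, 10.30, 10.34 and 10.10 with mix 2. Mix 1 arrays lay far below the other 8, whereas control and mix 2 overlapped. The fall with mix 1 was 1.48 (SE 0.07, adjusted p = 7.57e-11; 35.8% left), and with mix 2 the difference was -0.12 (95% confidence interval -0.27 to 0.02, adjusted p = 0.115). A direct test between the mixes gave 1.36 (SE 0.07, adjusted p = 6.8e-10). EIF2B2 was read by 1 probe set only.

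EIF2B4, the delta subunit, was also called lower with mix 1 only, but by less than EIF2B2, and its mix 1 and mix 2 arrays overlapped. It was at 9.70, 9.77, 9.82 and 9.78 log2 in control, 9.38, 9.35, 9.60 and 9.42 with mix 1, and 9.80, 9.90, 9.92 and 9.60 with mix 2. It fell by 0.33 with mix 1 (adjusted p = 0.00148), differed by 0.04 from control with mix 2 (adjusted p = 0.691), and differed by 0.37 between the mixes (adjusted p = 0.00095).

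eIF3 is the largest initiation factor and holds the small subunit and the mRNA together. Of its 12 measured subunit genes 11 fell with mix 1 (median -0.44), and 9 fell and 1 rose with mix 2 (median -0.28). Over all tested genes 32.3% were called lower with mix 1, and 31.9% lower and 36.7% higher with mix 2. EIF3J encodes a loosely bound subunit at the mRNA entry channel. Its levels were 11.07, 11.09, 11.12 and 11.15 log2 in control, 9.70, 9.54, 9.57 and 9.78 with mix 1, and 9.96, 9.92, 9.90 and 9.88 with mix 2. Every knockdown array was more than 1 log2 unit below every control array. The falls were 1.46 (SE 0.06, adjusted p = 2.63e-11) and 1.19 (SE 0.06, adjusted p = 1.85e-10), leaving 36.3% and 43.8%. The other EIF3J probe set fell by 1.47 and 1.96, so that the order of the mixes, unlike the fall itself, depended on the probe set.

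The other eIF3 subunits moved less than EIF3J. EIF3B, which forms part of the scaffold with EIF3A, fell by 0.58 and 0.70 log2, EIF3D, a subunit that can itself bind the cap, by 0.58 and 0.59, and EIF3M by 0.54 and 0.68. EIF3G (-0.38 and -0.39), EIF3K (-0.48 and -0.28), EIF3L (-0.40 and -0.28), EIF3I (-0.53 and -0.14) and EIF3E (-0.23 and -0.25) fell with both mixes. EIF3A, the largest subunit, gave no call, at -0.11 with mix 1 and -0.21 with mix 2 (adjusted p = 0.0528). Without mix 2 replicate D the latter was -0.29 with an adjusted p of 0.00578, and the brightest EIF3A probe set that is not shared was lower with both (-0.23 and -0.84; adjusted p = 0.00862 and 2.8e-08). The EIF3H call with mix 1 (-0.15, adjusted p = 0.0451) was lost with the replicate letter as a block, with no filter (0.0819), and without control B, C or D, mix 1 A or B, or mix 2 A, B or C. The EIF3I call with mix 2 (adjusted p = 0.0459) was lost with no filter (0.0850), and without control B, C or D or any mix 2 array. The EIF3K value with mix 2 was -0.07 (adjusted p = 0.657) in its brightest unshared probe set.

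EIF3F, a subunit with a deubiquitinase-like fold, was called in opposite directions by its brightest probe set. It was at 12.70, 12.69, 12.78 and 12.70 log2 in control, 12.51, 12.46, 12.57 and 12.61 with mix 1, and 12.93, 12.86, 12.90 and 12.84 with mix 2. These groups were separate but close together. The differences were -0.18 (adjusted p = 0.00736) and 0.17 (adjusted p = 0.0121), with SE 0.05 each. Another probe set of EIF3F gave the opposite signs, 0.60 with mix 1 and -1.08 with mix 2 (adjusted p = 0.00727 and 5.08e-05), so no direction is given for this gene.

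eIF4F joins the cap-binding protein eIF4E, the scaffold eIF4G and the helicase eIF4A. EIF4E fell from 10.87, 10.73, 10.77 and 10.83 log2 in control to 10.31, 10.25, 9.71 and 10.31 with mix 1 and to 10.11, 10.31, 10.27 and 10.49 with mix 2. All knockdown arrays lay below all control arrays, and mix 1 replicate C was well below its group. The falls were 0.66 (SE 0.12, adjusted p = 0.000192) and 0.51 (SE 0.12, adjusted p = 0.00160), and both other EIF4E probe sets above the filter value fell as well.

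EIF4E2 encodes a cap-binding relative of eIF4E that does not bind eIF4G in the usual way and is known as a repressor of initiation. It was at 9.79, 9.85, 9.75 and 9.72 log2 in control, 10.28, 10.31, 10.44 and 10.26 with mix 1, and 10.44, 10.45, 10.45 and 10.21 with mix 2. All 8 knockdown arrays lay above all control arrays. The rises were 0.55 (SE 0.07, adjusted p = 4.18e-06) and 0.61 (SE 0.07, adjusted p = 1.18e-06). EIF4E2 was the only factor gene that rose with both mixes. Of its 3 other probe sets, a shared one rose by 0.45 and 0.51, an unshared one by 1.27 and 0.25, and the dimmest, near the filter value, gave 0.09 and 0.01 with no call.

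Within each array, EIF4E minus EIF4E2 was 1.02 ± 0.10 log2 in control (SD, n = 4), -0.18 ± 0.37 with mix 1 and -0.09 ± 0.26 with mix 2. This contrast of probe sets fell by 1.20 and 1.11 (-2.17 and -1.43 without shared probe sets), and no knockdown array overlapped the controls. In the exact two-sided permutation test the p was 0.0286 each, the smallest that 4 arrays against 4 allow, and 0.0429 after adjustment over 18 tests on 6 pairs of related genes. EIF4E3, the third family member, fell by 0.45 and 0.29, and EIF4E minus EIF4E3 moved by -0.21 with each mix (exact permutation adjusted p = 0.377 and 0.0429). The mix 1 value was -0.06 without mix 1 replicate C, and without shared probe sets the values were -0.45 and -0.89. Such a contrast shows unequal change, not which gene has more mRNA.

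The scaffold gene EIF4G1 fell by 0.40 (adjusted p = 0.00108) and 0.65 log2 (adjusted p = 1.09e-05). Its other probe set gave no call, at -0.47 (limma adjusted p = 0.0977) and -0.33 (adjusted p = 0.253). EIF4G2, also called DAP5, lacks the eIF4E-binding part and serves cap-independent initiation. It was at 13.46, 13.43, 13.37 and 13.33 log2 in control, 13.61, 13.63, 13.45 and 13.50 with mix 1, and 12.72, 12.60, 12.67 and 13.01 with mix 2. Control and mix 1 overlapped, and all mix 2 arrays were below both. The EIF4G2 difference was 0.15 with mix 1 (limma adjusted p = 0.121) and -0.65 with mix 2 (SE 0.08, adjusted p = 4.9e-06). The mix 1 rise was called without mix 2 replicate D (adjusted p = 0.0302) and with only control and mix 1 in the fit (0.0460). It was also called with the probe sets averaged (0.15, adjusted p = 0.0149). Another EIF4G2 probe set above the filter value gave no call, at 0.14 with mix 1, 0.00 with mix 2 and -0.13 between the mixes.

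EIF4A3, a helicase that serves in the exon junction complex rather than in eIF4F, was at 11.82, 11.85, 11.93 and 11.93 log2 in control, 11.12, 11.11, 11.18 and 11.25 with mix 1, and 11.29, 11.31, 11.31 and 11.19 with mix 2. The knockdown arrays formed a narrow band below the controls. The falls were 0.72 and 0.61 (SE 0.06; adjusted p = 2.68e-08 and 1.56e-07). EIF4H, a cofactor of the eIF4A helicase, fell by 0.55 and 0.61. EIF4B, the other cofactor, gave 0.21 with mix 1 (adjusted p = 0.0454) and -0.16 with mix 2 (adjusted p = 0.113; 0.0199 with the replicate block). The mix 1 call for EIF4B was lost when arrays were centred on their medians (0.18, adjusted p = 0.102), with no filter (0.0710), and without any of control A, C or D, mix 1 A, B or C, or mix 2 A or C.

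The 4E-BPs compete with eIF4G for eIF4E. EIF4EBP1 encodes 4E-BP1, the best known of them. It was at 9.98, 10.20, 9.90 and 9.91 log2 in control, 8.73, 8.62, 8.81 and 8.47 with mix 1, and 8.67, 8.63, 8.81 and 8.51 with mix 2. All 8 knockdown arrays lay more than 1 log2 unit below the lowest control array. The fall was 1.34 with each mix (SE 0.09, adjusted p = 5.42e-09 and 4.72e-09), leaving 39.5% and 39.4% of control. The interval of the difference between the mixes was -0.20 to 0.19. EIF4EBP1 was read by 1 probe set.

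EIF4EBP2 encodes 4E-BP2 and moved differently. It was at 10.13, 10.18, 10.18 and 10.09 log2 in control, 10.88, 10.97, 10.85 and 10.89 with mix 1, and 9.90, 9.91, 9.77 and 9.52 with mix 2. The groups were fully separate, with mix 1 above control and mix 2 below it. It rose by 0.75 with mix 1 (SE 0.08, adjusted p = 6.12e-07) and fell by 0.37 with mix 2 (SE 0.08, adjusted p = 0.000614). Its 3 other probe sets above the filter value read 0.14 to 0.46 above control with mix 1 and 0.28 to 0.68 below control with mix 2, and each was lower with mix 2 than with mix 1.

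Within arrays, EIF4EBP1 minus EIF4EBP2 was -0.15 ± 0.12 log2 in control (SD, n = 4), -2.24 ± 0.18 with mix 1 and -1.12 ± 0.16 with mix 2. The change was -2.09 with mix 1, -0.97 with mix 2 and 1.12 between the mixes, with an exact permutation p of 0.0286 and an adjusted p of 0.0429 in each case. With same-letter arrays paired, the exact sign-flip p was 0.125 in each case, the smallest that 4 pairs allow. EIF4ENIF1, a shuttling protein that also binds eIF4E, was 8.25 ± 0.05 log2 in control, 8.07 ± 0.08 with mix 1 and 8.13 ± 0.12 with mix 2. Its fall of 0.18 with mix 1 (adjusted p = 0.0287) was smaller than the changes of the other inhibitors and was lost with no filter (0.0520) and when control A, B or C, or mix 1 A or D, was left out.

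**Figure D3:**
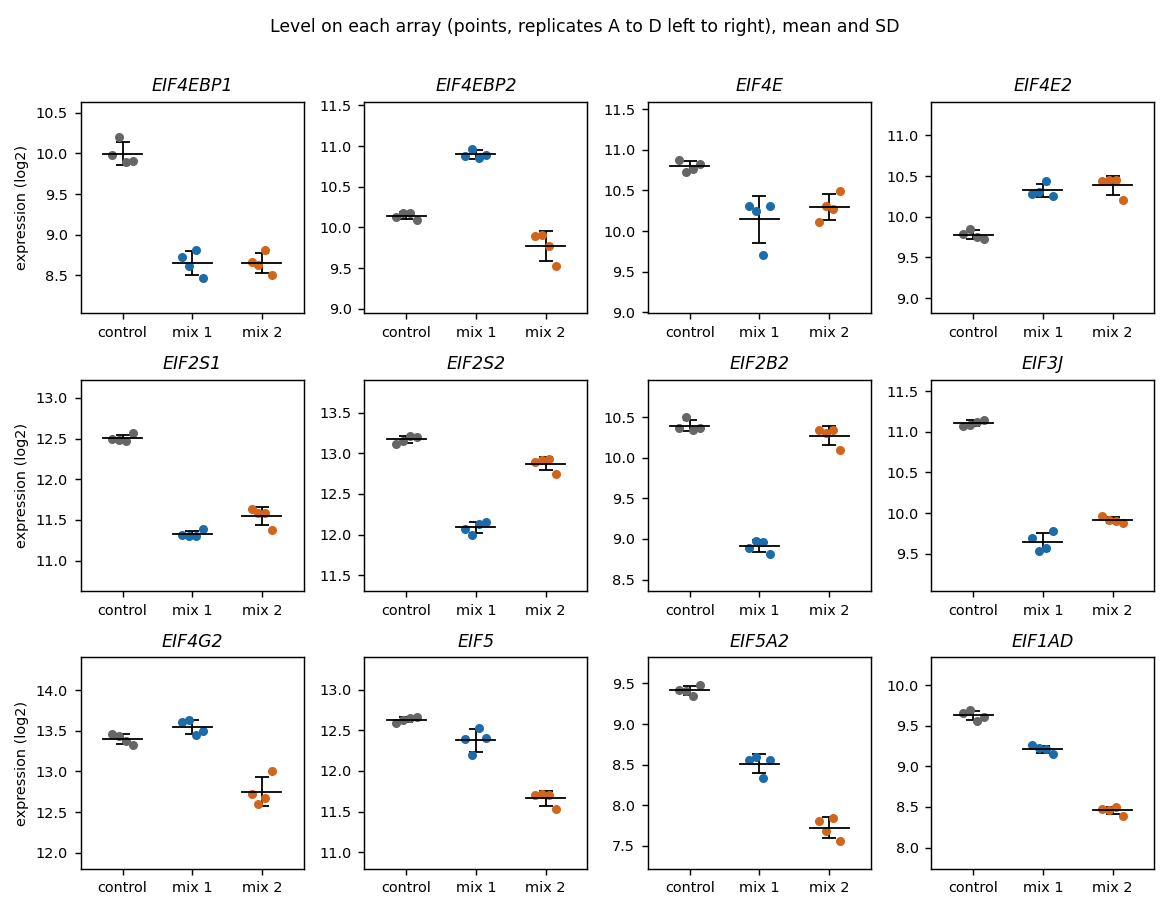
Level of 12 factor genes on each array (y axis, log2 expression of the brightest probe set; points are replicates A to D from left to right), with the mean and SD of each group (n = 4). EIF4EBP1 lies more than 1 log2 unit lower with both mixes, EIF4EBP2 lies above control with mix 1 and below it with mix 2, and EIF2B2 is low with mix 1 only.

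After start codon recognition, EIF5B encodes the factor that joins the subunits, and EIF6 one that keeps free large subunits apart from small ones. EIF5B was at 11.87, 11.85, 11.95 and 12.01 log2 in control, 11.47, 11.58, 11.56 and 11.47 with mix 1, and 11.72, 11.71, 11.76 and 11.59 with mix 2. Its groups did not overlap, and the falls were 0.40 (adjusted p = 2.6e-05) and 0.23 (adjusted p = 0.00344). EIF6 went from 12.56, 12.63, 12.62 and 12.56 log2 to 12.02, 12.06, 12.07 and 12.02 with mix 1 and 12.11, 12.22, 12.24 and 11.94 with mix 2. That is a fall of 0.55 (adjusted p = 2.66e-06) and 0.47 (adjusted p = 1.41e-05), with all knockdown arrays below control.

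eIF5A relieves ribosome stalling and is the only known protein that carries hypusine, a modified lysine. EIF5A, the common form, was at 12.05, 12.20, 12.05 and 12.08 log2 in control, 11.44, 11.18, 11.30 and 11.36 with mix 1, and 11.33, 11.44, 11.45 and 11.18 with mix 2. The fall was 0.78 and 0.74 (SE 0.07; adjusted p = 2.79e-07 and 3.95e-07). EIF5A2, an isoform gene often raised in tumours, was at 9.42, 9.41, 9.35 and 9.48 log2 in control, 8.56, 8.59, 8.34 and 8.56 with mix 1, and 7.81, 7.69, 7.84 and 7.56 with mix 2. The 3 groups were fully separate and in that order. EIF5A2 fell by 0.90 with mix 1 (SE 0.07, adjusted p = 5.05e-08) and by 1.69 with mix 2 (SE 0.07, adjusted p = 4.39e-11; 31.0% left), the largest fall among the 53 genes.

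The contrast EIF5A minus EIF5A2 rose by 0.94 log2 with mix 2 (exact permutation adjusted p = 0.0429; 0.53 with probe sets averaged) and by 0.13 with mix 1 (adjusted p = 0.356). Both other EIF5A2 probe sets fell too, with -0.51 and -0.85 under mix 1 and -0.58 and -1.28 under mix 2. The 8 measured genes for the hypusine of eIF5A and the diphthamide of eEF2, a modified histidine, had medians of -0.62 (6 lower, 1 higher) and -0.51 (7 lower, 1 higher). Of all tested genes 32.3% were lower and 34.8% higher with mix 1, and 31.9% and 36.7% with mix 2. For hypusine, DHPS gave -0.18 (no call) and -0.54, and DOHH fell by 0.44 and 0.49. DPH2 (-0.88 and -0.91), DPH7 (-0.72 and -0.83) and DPH5 (-0.69 and -0.41), of diphthamide synthesis, fell with both mixes. DPH3 (0.56 and -1.43) and DPH6 (-0.84 and 0.48), of the same pathway, were called in opposite directions by the mixes.

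Of the 5 measured genes of eEF1, eEF2 and the eEF2 kinase, 1 fell with mix 1, and 2 fell and 2 rose with mix 2. Over all tested genes 32.3% were called lower with mix 1, and 31.9% lower and 36.7% higher with mix 2. EEF1A1, which delivers aminoacyl-tRNA to the ribosome, was at 14.57 ± 0.03 log2 in control, 14.61 ± 0.04 with mix 1 and 14.62 ± 0.02 with mix 2 (SD, n = 4), near the top of the array range of 14.71. The differences of 0.04 and 0.05 gave no call (95% confidence intervals -0.06 to 0.14 and -0.05 to 0.15). A probe set of EEF1A1 that is not shared, at 9.60 log2 in control, gave 0.31 and -0.21 (adjusted p = 0.00626 and 0.0480).

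EEF1A2, the form of muscle and neurons that is gained in some breast tumours, was at 7.88, 7.99, 7.73 and 7.77 log2 in control, 8.01, 8.10, 7.98 and 7.61 with mix 1, and 8.35, 8.46, 8.48 and 8.23 with mix 2. Mix 2 arrays lay above all others, while mix 1 overlapped control. EEF1A2 rose by 0.54 with mix 2 (SE 0.10, adjusted p = 0.000215) and gave 0.08 with mix 1 (adjusted p = 0.491). EEF1D, part of the exchange factor of eEF1A, was at 12.91, 13.00, 13.00 and 13.08 log2 in control and at 12.84, 12.90, 12.87 and 12.72 with mix 2, a fall of 0.17 (adjusted p = 0.0227). Without mix 2 replicate D it was -0.13 with an adjusted p of 0.0549, without control D -0.14 with an adjusted p of 0.0755, and with mix 1 it was -0.10 (adjusted p = 0.153).

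EEF2, the translocase, was at 12.90, 12.87, 12.76 and 12.78 log2 in control, 12.58, 12.68, 12.56 and 12.61 with mix 1, and 12.58, 12.53, 12.62 and 12.65 with mix 2. The groups were separate, and the fall was 0.22 and 0.23 (SE 0.06; adjusted p = 0.00254 and 0.00162). EEF2K, the kinase that inactivates eEF2, went from 8.20, 8.32, 8.16 and 8.11 log2 to 8.36, 8.34, 8.27 and 8.18 with mix 1 and 8.61, 8.52, 8.45 and 8.44 with mix 2. Its brightest probe set rose with mix 2 by 0.31 (adjusted p = 0.000642) and gave 0.09 with mix 1 (adjusted p = 0.240). The other EEF2K probe set did the reverse, with a rise of 0.63 with mix 1 (adjusted p = 4.07e-05) and -0.20 with mix 2 (adjusted p = 0.0934).

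All 4 measured methyltransferase genes of eEF1A and eEF2 fell with both mixes, where 32.3% and 31.9% of all tested genes were called lower. EEF1AKMT1 was at 7.87 ± 0.11 log2 in control (SD, n = 4), 6.63 ± 0.24 with mix 1 and 7.38 ± 0.14 with mix 2. The groups did not overlap, with mix 2 in the middle, and the falls were 1.25 (SE 0.11, adjusted p = 8.63e-08) and 0.48 (SE 0.11, adjusted p = 0.00094). EEF1AKMT2 fell by 0.66 and 0.80 and EEF2KMT by 0.57 and 0.60. EEF1AKMT3 was at 6.89, 6.75, 6.58 and 6.64 log2 in control, 6.71, 6.51, 6.22 and 6.32 with mix 1, and 6.15, 6.21, 5.76 and 6.01 with mix 2. It fell by 0.68 with mix 2 (adjusted p = 9.48e-05). Its mix 1 arrays overlapped control, and that call (-0.28, adjusted p = 0.0489) was lost with no filter (0.0711), and without control A, B or D, mix 1 B, C or D, or mix 2 A or D.

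EIF1AD is a nuclear protein named for its likeness to eIF1A. It was at 9.65, 9.69, 9.56 and 9.61 log2 in control, 9.26, 9.22, 9.21 and 9.15 with mix 1, and 8.48, 8.46, 8.50 and 8.39 with mix 2. It fell by 0.42 (SE 0.05, adjusted p = 5e-06) and 1.17 (SE 0.05, adjusted p = 5.57e-11). Its other probe set also fell with both but in the other order, by 1.35 and 0.70. The non-coding EIF3J-DT, transcribed away from EIF3J, went from 7.18, 7.42, 7.16 and 7.35 log2 to 7.12, 6.95, 6.83 and 6.69 with mix 1 (-0.38, adjusted p = 0.00145). With mix 2 it was at 7.17, 7.22, 7.32 and 7.27 (-0.03, adjusted p = 0.768), although EIF3J itself fell there. EIF1B-AS1 gave -0.14 and -0.08 with no call (adjusted p = 0.193 and 0.457). Without mix 2 replicate D it was called lower with both, at -0.14 and -0.19 (adjusted p = 0.0437 and 0.0162).

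Between the mixes, 15 of the 53 factor genes were higher with mix 2 and 9 lower, against 28.7% and 25.0% of all genes and 53.7% called in all. The median was 0.03, as over all genes (0.03). The groups did not overlap for 15 and 8 of them (24.3% and 21.7% of all genes), and without mix 2 replicate D the counts of calls were 17 and 9. The EIF4G1 call between the mixes (-0.26) was lost without that array (-0.20, limma adjusted p = 0.0774), and also without mix 1 B or C. EIF3M (-0.22, adjusted p = 0.00910), EIF4A3 (0.14, adjusted p = 0.0423) and EIF6 (0.15, adjusted p = 0.0245) were called only without mix 2 replicate D or with other alternatives. A difference of at least 2-fold was called for 1 gene in each direction, EIF2B2 higher (2.63% of all genes) and EIF4EBP2 lower (3.63%).

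The genes higher with mix 2 than with mix 1 were led by EIF2B2 (1.36 log2), EIF2S2 (0.79, SE 0.06, adjusted p = 4.38e-08), EEF1AKMT1 (0.76, SE 0.11, adjusted p = 2.96e-05) and EEF1A2 (0.46, SE 0.10, adjusted p = 0.00137). Those lower were led by EIF4EBP2 (-1.12, SE 0.08, adjusted p = 2.16e-08), EIF4G2 (-0.80, SE 0.08, adjusted p = 1.24e-06), EIF5A2 (-0.79, SE 0.07, adjusted p = 5.14e-07) and EIF1AD (-0.75, SE 0.05, adjusted p = 2.34e-08). EIF5 differed by -0.71 (adjusted p = 9.72e-07), and its 4 other probe sets were also lower with mix 2. By complex, 3 of 5 eIF2B genes and 5 of 12 eIF3 genes were higher with mix 2 and 1 and 0 lower, in the brightest probe sets. Over all genes 28.7% were higher and 25.0% lower. With the probe sets of a gene averaged, EIF3H (0.35), EIF3I (0.39), EIF3K (0.25) and EIF3L (0.12) were higher with mix 2. EIF3A (-0.29), EIF3B (-0.15), EIF3E (-0.16), EIF3F (-0.46) and EIF3M (-0.23) were lower. EIF3J was then at -0.11 with no call (limma adjusted p = 0.155). The 8 measured genes grouped as eIF4F and its helpers include EIF4A3, EIF4E2, EIF4E3 and EIF4G2, which are not subunits of the usual eIF4F. Of these 8 genes 0 were higher and 3 lower in the brightest probe sets, namely EIF4B, EIF4G1 and EIF4G2. With the probe sets averaged, EIF4B (0.03, limma adjusted p = 0.730) and EIF4G1 (-0.06, adjusted p = 0.640) gave no call. EIF4G2 stayed lower, and EIF4E2 was then called lower too (-0.25, adjusted p = 0.000738). For EIF2S2 and EIF1AD the sign between the mixes was opposite in another probe set (-0.23 and 0.65).

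**Figure D4:**
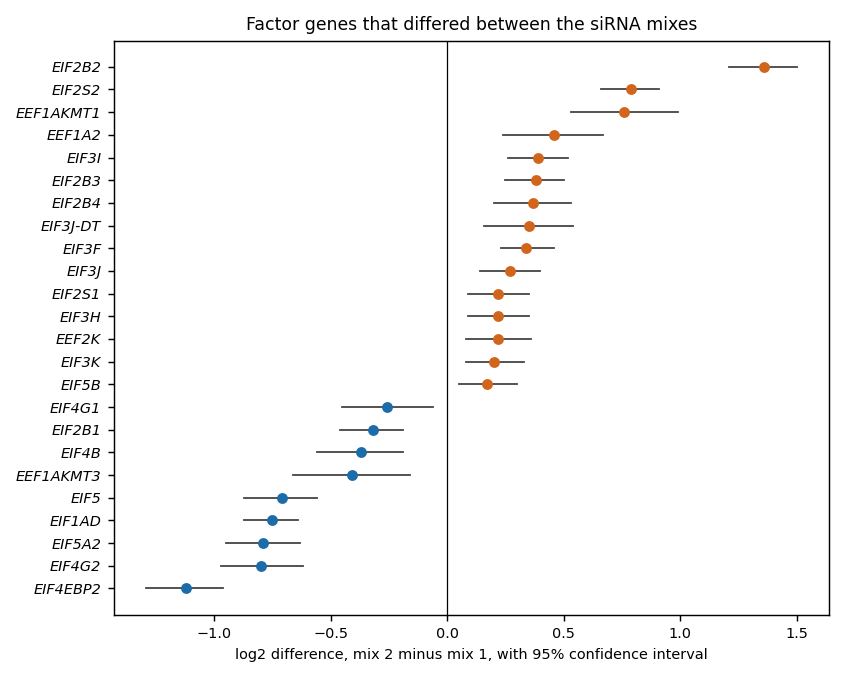
Difference between the mixes (mix 2 minus mix 1, log2, x axis) of the 24 factor genes with an adjusted p below 0.05, with 95% confidence intervals from limma (n = 4 arrays per group); orange points are higher and blue points lower with mix 2. EIF2B2 at 1.36 and EIF4EBP2 at -1.12 mark the ends.

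Because the probe sets of a gene differed, every factor probe set was also fitted on its own, a choice made after the data were seen. Of 125 probe sets above the filter value, 79 were lower and 9 higher with mix 1 (30.1% and 31.6% of 24675 probe sets of all genes), and 84 lower and 6 higher with mix 2 (30.7% and 32.3%). Between the mixes 36 were lower and 21 higher, against 23.4% of all probe sets in each direction. Of 33 genes with several such probe sets, 20 had the same call in all of them in each of these comparisons, and EIF3F alone was called both ways. Between the mixes 13 of 33 had the same call in all, and 6 were called both ways: EEF2K, EIF1AD, EIF2S1, EIF2S2, EIF3F and EIF3J.

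**Figure D5:**
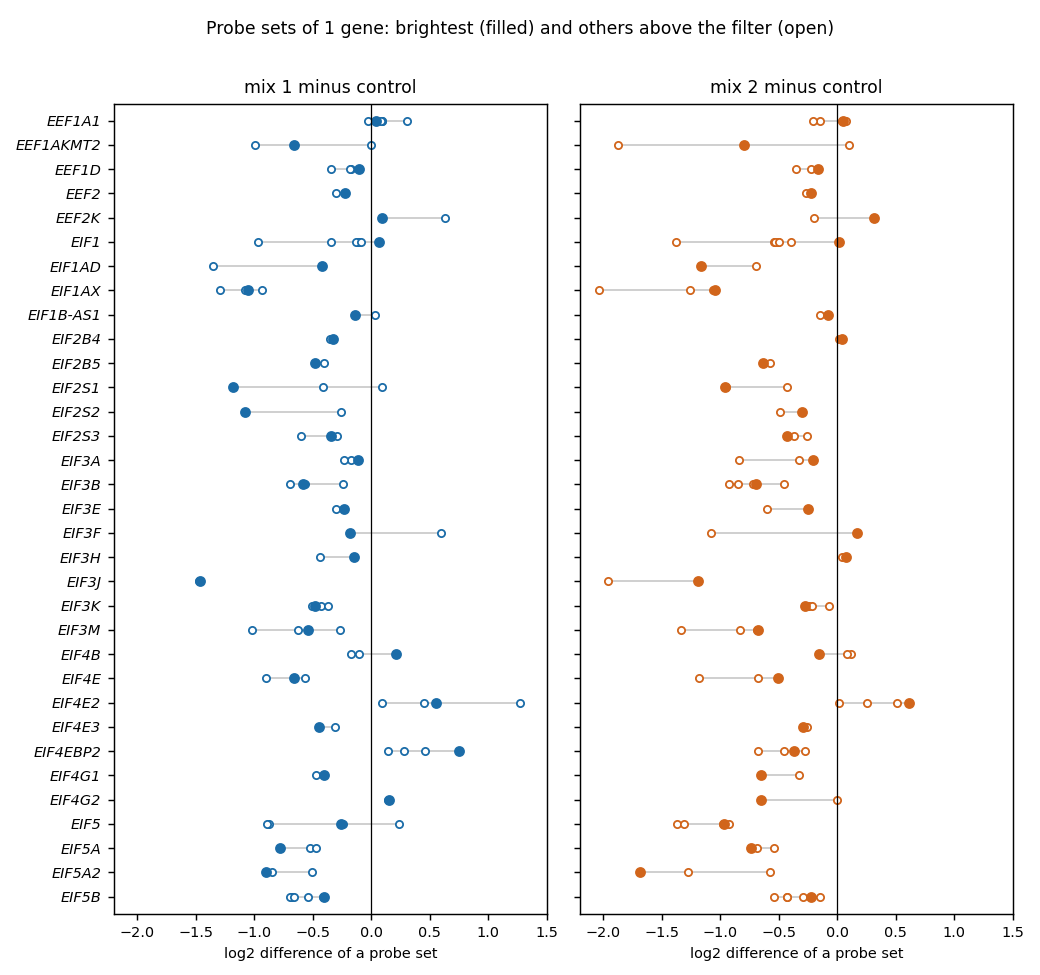
Log2 difference from control of every probe set above the filter value (x axis) for the 33 factor genes with several (rows), with mix 1 (left) and mix 2 (right); filled circles are the brightest probe set, which stands for the gene, and open circles the others. The probe sets of EIF5B all lie below 0, while those of EIF3F lie on both sides.

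The lists that follow are to be read against all tested genes, of which 34.8% were called higher and 32.3% lower with mix 1, and 36.7% and 31.9% with mix 2. Among 12 genes that control eIF2 phosphorylation, 3 were higher and 6 lower with mix 1 and 5 higher and 4 lower with mix 2 (medians -0.14 and 0.20), the latter near the shares of all genes. PPP1R15A, the stress-induced subunit that directs a phosphatase to eIF2, fell by 0.38 (adjusted p = 0.000809) and 1.02 (adjusted p = 3.22e-08). EIF2AK2, the kinase PKR that senses double-stranded RNA, rose by 0.50 (adjusted p = 0.000168) and 0.26 (adjusted p = 0.0191). PPP1CC, a catalytic phosphatase subunit, fell by 0.40 and 0.17.

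Among 26 measured partners and regulators of the cap-binding complex, 3 rose and 12 fell with mix 1 and 5 rose and 13 fell with mix 2 (medians -0.12 and -0.27). Over all genes 67.1% and 68.6% were called in either direction. MKNK2, a kinase that phosphorylates eIF4E, was 10.62 ± 0.08 log2 in control, 12.28 ± 0.09 with mix 1 and 11.38 ± 0.13 with mix 2, a rise of 1.66 (adjusted p = 6.01e-11) and 0.76 (adjusted p = 2.91e-07). Its relative MKNK1 rose by 0.30 and 0.38. NCBP1, the large subunit of the nuclear cap-binding complex, gave -1.41 and -2.11 (adjusted p = 8.28e-10 and 9.57e-12). LARP4, a binder of poly(A) tails, fell by 0.26 and 1.26, and the ABC-type ATPase gene ABCF2 by 0.90 and 1.01.

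Of 30 measured genes of mTORC1 and its regulators, 15 rose with each mix (34.8% and 36.7% of all genes), and 5 and 8 fell (32.3% and 31.9% of all genes), with medians of 0.18 and 0.19. DDIT4, a stress-induced inhibitor of mTORC1 also called REDD1, rose from 10.57 ± 0.13 log2 to 12.29 ± 0.02 and 12.02 ± 0.09, by 1.72 (adjusted p = 2.04e-11) and 1.45 (adjusted p = 9.93e-11). SESN3, a sestrin that restrains mTORC1, rose by 1.03 and 1.34, and RRAGB, a GTPase that brings mTORC1 to lysosomes, by 0.89 and 1.10. RHEB, the GTPase that switches mTORC1 on, fell by 0.51 and 1.03 (adjusted p = 2.26e-06 and 8.88e-10). RRAGD fell by 0.84 and 0.41 and NPRL2, part of a brake on the Rag GTPases, by 0.58 and 0.57. mTORC1 activity and the phosphorylation of 4E-BP1 were not measured.

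For the steps after elongation, 14 measured genes of termination, recycling and rescue gave 5 higher and 7 lower with mix 1 and 5 higher and 4 lower with mix 2. With mix 2 these shares are near those of all genes (36.7% higher, 31.9% lower). ABCE1, the ATPase that splits ribosomes, fell by 1.72 and 1.64 log2 (adjusted p = 5.3e-11 and 7.34e-11). ETF1, the release factor that reads stop codons, fell by 0.49 and 0.55, and GSPT2, a form of its GTPase partner, rose by 0.14 and 0.63. Among 12 mitochondrial translation factors 2 rose and 9 fell with mix 1 and 3 rose and 7 fell with mix 2. GFM1, a mitochondrial elongation factor, fell by 1.18 and 0.48, the recycling factor gene MRRF by 1.02 and 1.04, and MTIF3, an initiation factor, rose by 0.69 and 1.04.

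EIF4A3 works with the exon junction complex, of which 6 measured partners gave 1 higher and 5 lower with each mix. MAGOHB fell, at -1.69 and -1.88 log2 (adjusted p = 9.03e-11 and 2.32e-11) and RBM8A fell by 0.89 and 0.83, while UPF2, a nonsense-mediated decay factor, rose by 0.45 and 0.36. Of 7 genes for the incorporation of selenocysteine 1 rose and 4 fell with mix 1 and 0 rose and 1 fell with mix 2, and SEPHS1, a relative of selenophosphate synthetase, fell by 0.66 and 0.88. Among the tRNA synthetases, both subunit genes of the phenylalanine enzyme, FARSB (-1.91 and -2.14) and FARSA (-0.89 and -1.18), fell with both mixes, as did VARS1 (-1.52 and -1.49).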

How the data were processed

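RNA of the 12 cultures was hybridised to Affymetrix arrays with a kit that labels from the 3′ end, per the labels' protocols. The authors deposited log2 expression values per probe set, and the submitters' processing notes name RMA; no source used here gives its software or options. RMA gives arrays 1 distribution, so a shift of all genes would not be seen; array medians ran from 5.69 to 5.78. Of 54675 probe sets, 41097 had exactly 1 symbol in GEO's platform annotation; symbols were updated to RefSeq names (GRCh38.p14) for 41043.

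The brightest probe set stood for each of 19775 genes, and 13225 genes above the 40th percentile (5.46 log2) were tested with limma 3.58.1 in R 4.3.3: 3 group means, 9 residual degrees of freedom, default eBayes, two-sided p-values adjusted by Benjamini-Hochberg, threshold 0.05. The fit was also run on simulated data in which far fewer genes changed than were called here. That run therefore does not measure the accuracy of these calls. An array has no read depth; the 4 arrays per group limit the precision, and p-values measure the spread between parallel cultures. For 6 pairs of related genes, the within-array contrast was tested by exact permutation over arrays. EIF4A1 with EIF4A2 and EIF4G1 with EIF4G3 could not be tested.

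Members, lists and tests were chosen with earlier results of these data known. Array values are given for the inhibitors, for the highest and lowest gene of each subgroup by the mean of both log2 changes among those called under at least 1 mix, and for the 4 highest and 4 lowest genes between the mixes; EIF4E was added for its pair. From each list up to 3 genes per direction, called under both mixes and ranked by the mean of their changes, could be named, and YAP1, WWTR1 and MYC. DHPS, DOHH, DPH3 and DPH6 were named outside this rule. The alternatives were the replicate block, no filter or a 60th percentile filter, all probe sets of a gene averaged, no shared probe sets (names ending in _s_at or _x_at), median centring, fits on 2 groups, a trended robust prior, and leaving out each array.

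The letters A to D were tested for pairing through correlations of deviations from the group means. Same-letter arrays of control and mix 1 correlated at 0.370, 0.251, 0.409 and 0.340, all above 0.1, so they may pair. This comes from the values, not the labels. Some arrays with different letters correlated about as highly: control A with mix 1 B at 0.374, control B with mix 1 A at 0.232 and control C with mix 1 D at 0.286. Control D with mix 1 C gave -0.003. A pairing letter by letter can therefore not be told from a likeness shared by several letters. Control and mix 2 gave 0.119, 0.034, 0.048 and 0.212, and the mixes 0.273, -0.085, 0.202 and 0.191.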

Additional observations from a re-analysis of the deposited data

Results flagged for a closer look

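Dixon's test was run on the 4 arrays of each group for 26 genes, 78 groups in all, of which chance flags about 1 in 20. It flagged 7 values. EIF4E, whose array values are given above, was not among the 26 genes, so its arrays were not tested this way. In mix 2, replicate D was low for EIF4E2 (10.21 log2 against 10.44 to 10.45), EIF2B2 (10.10 against 10.30 to 10.34) and EIF4A3 (11.19 against 11.29 to 11.31). The same array had the lowest upper quartile over all probe sets, 7.70 log2. In mix 1, replicate D was high for EIF2S1 (11.39 against 11.30 to 11.31) and replicate C low for EIF5A2 (8.34 against 8.56 to 8.59). In control, replicate D was high for EIF2A (11.64 against 11.48 to 11.49) and replicate C for EIF3F (12.78 against 12.69 to 12.70).

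For a pair of genes the mixes were called in opposite directions against the shared controls, and the direct test between the mixes passed: EIF4EBP2 differed by -1.12 log2 (limma adjusted p = 2.16e-08) and EIF3F by 0.34 (adjusted p = 6.38e-05). The EIF4EBP2 difference had the same sign in its 3 other probe sets above the filter value, and that of EIF3F had the opposite sign in another probe set (-1.69).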

How the results depend on the processing

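The number of arrays, probe-set choice and the shared controls set the limits. Leaving out 1 array gave 38 to 41 lower and 2 to 4 higher genes with mix 1, 35 to 39 and 4 to 5 with mix 2, and 8 to 10 and 14 to 17 between the mixes. With the replicate block the counts were 40 and 3, 40 and 5, and 9 and 17; besides EIF3H with mix 1 and EIF4B with mix 2, given above, it changed the calls of EIF3A with mix 2 (adjusted p = 0.0387) and, between the mixes, of EIF1B (0.0384) and EIF4E3 (0.0363), and no other factor call. Without shared probe sets, which left 42 genes, 6 were higher with mix 1, and 9 higher and 16 lower between the mixes; with a gene's probe sets averaged 2 were higher with mix 2 and 19 lower between the mixes. With every probe set fitted on its own, chosen after the data were seen, 79 of 125 were lower and 9 higher with mix 1, 84 lower with mix 2 and 36 lower between the mixes.

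The following signs turned with probe-set choice, given as the mean of probe sets and then without shared ones where both turned; the cause was not tested. With mix 1 these were EIF1 (-0.24 and -0.97), EIF3F (0.05 and 0.60), EIF2S1 (0.09 without shared), EIF5 (0.24 without shared) and EIF4B (-0.02 as a mean). With mix 2 they were EIF1 (-0.55 and -1.38), EIF3F (-0.41 and -1.08) and EEF1A1 (-0.21 without shared). Between the mixes they were EEF1A1 (-0.12 and -0.53), EIF2S1 (-0.28 and -0.52), EIF3F (-0.46 and -1.69), EIF4E2 (-0.25 and -1.02), EIF2S2 (-0.23 without shared), EEF2K (-0.31 as a mean), EIF3J (-0.11 as a mean) and EIF4B (0.03 as a mean). Among the pairs, EIF1 minus EIF1B with mix 1 went from 0.05 to -0.20 and -0.99, EEF1A1 minus EEF1A2 with mix 1 from -0.04 to 0.01 and 0.23, and EIF4E minus EIF4E2 between the mixes from 0.08 to 0.74 without shared probe sets (exact permutation adjusted p = 0.0396). With the replicate block as pairs of same-letter arrays, no pair contrast could pass, since 4 pairs allow no exact sign-flip p under 0.125. This p was reached by the 12 contrasts called without pairing: EIF4EBP1 minus EIF4EBP2 (-2.09, -0.97 and 1.12), EIF4E minus EIF4E2 (-1.20 and -1.11), EIF4E minus EIF4E3 with mix 2 (-0.21), EIF1 minus EIF1B (-0.15 with mix 2, -0.20 between the mixes), EIF5A minus EIF5A2 (0.94 and 0.82) and EEF1A1 minus EEF1A2 (-0.49 and -0.45).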
